A study of Mus musculus with 62 samples.

Results

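The genes described here are the receptor chains for interferons and interleukin-10 (IL-10) and the kinases that signal from them. They are Ifnar1, Ifnar2, Ifngr2 and Il10rb, which stand side by side in the part of mouse chromosome 16 that is triplicated in Ts65Dn mice, and Ifngr1, Il10ra, Jak1 and Tyk2, their partners in 2 copies elsewhere in the genome. They were taken by symbol, as 8 of the 27179 genes with counts, by a rule that used no measured value. The choice was made with earlier results of these data known. All 8 passed the filter on low counts in both tissues.

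RNA-seq counts were analyzed from 15 libraries of forebrain at embryonic day E17.5 (8 euploid, 7 Ts65Dn) and 47 libraries of hippocampus from mice of 6 weeks. The adult libraries were from 8 euploid, 7 Ts65Dn and 8 Ts65Dn;Brwd1+/- males and from 8 females of each of these genotypes. Ts65Dn mice model Down syndrome by a freely segregating extra chromosome with a segment of chromosome 16 and one of chromosome 17, and Ts65Dn;Brwd1+/- mice carry in addition the repro5 mutant allele of Brwd1, a gene of the triplicated segment, so that 2 unmutated copies remain. The latter came from Ts65Dn mothers and Brwd1+/- fathers, and every group shared the mixed DBA/2J x B6EiC3Sn/J background. Euploid animals served as the control in each tissue and sex, and the sex of the embryos was not given by the labels. The comparisons ask which transcripts follow trisomy in the embryonic and adult brain, and which of them are altered when Brwd1 alone is returned to 2 working copies.

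Type I interferons bind a receptor made of the IFNAR1 and IFNAR2 chains, whose intracellular ends hold the kinases TYK2 and JAK1. Interferon-γ binds IFNGR1, and IFNGR2 completes that receptor and brings in JAK2 beside JAK1. IL-10 binds IL10RA with JAK1, and IL10RB, which holds TYK2, is the shared second chain for IL-10, IL-22 and the type III interferons. From these receptors STAT proteins carry the signal to the nucleus, where interferons induce antiviral and antigen-presentation genes, and in brain the receptors are known from microglia, vascular cells, astrocytes and neurons.

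On GRCm38, all 4 triplicated chains lie on the plus strand of chromosome 16 within 191 kb. Ifnar2 spans chr16:91372783-91405589 and Il10rb, which starts 567 bases beyond its end, spans chr16:91406157-91425834. Ifnar1 follows after 59197 bases at chr16:91485032-91510523, and Ifngr2 after a further 36535 bases at chr16:91547059-91564007. Of the partners, Ifngr1 lies at chr10:19591949-19610229, Il10ra at chr9:45253837-45269149, Jak1 at chr4:101151974-101265282 and Tyk2 at chr9:21104068-21131393. A readthrough transcript, Gm21970, shares 315 exonic bases with Ifnar2 (9.5% of its exons) and 569 with Il10rb (14.9%), and an antisense gene, 1700084C06Rik, shares 554 with Tyk2 (8.1%). Gm21970 lies on the same strand as Ifnar2 and Il10rb, and for the antisense gene the library kit does not keep the strand. Reads from these stretches therefore cannot be assigned to 1 gene.

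RefSeq promoter windows of GRCm38.p6 were on hand for 6 of the 8 genes, all but Il10rb and Il10ra. Those of Ifnar2 and Ifngr2 are shown because these chains frame the cluster, and that of Ifngr1 because it is the 2-copy partner of Ifngr2. Each runs over the 250 bases before the first base of the gene, on the plus strand. Capitals mark a GC box (GGGCGG, bound by SP family factors) or a GAS element (TTCNNNGAA, bound by STAT dimers), searched on both strands.
Ifnar2, chr16:91372533-91372782: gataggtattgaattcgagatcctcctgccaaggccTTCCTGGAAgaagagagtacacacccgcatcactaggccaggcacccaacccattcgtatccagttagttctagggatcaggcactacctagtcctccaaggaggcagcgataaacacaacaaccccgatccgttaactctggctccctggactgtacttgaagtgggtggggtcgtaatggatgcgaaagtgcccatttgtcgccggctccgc
Ifngr2, chr16:91546809-91547058: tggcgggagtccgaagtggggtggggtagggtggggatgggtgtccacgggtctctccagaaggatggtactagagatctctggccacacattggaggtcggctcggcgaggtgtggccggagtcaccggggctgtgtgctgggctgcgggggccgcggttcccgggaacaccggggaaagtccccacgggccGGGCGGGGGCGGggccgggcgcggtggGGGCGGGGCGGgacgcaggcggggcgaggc
Ifngr1, chr10:19591699-19591948: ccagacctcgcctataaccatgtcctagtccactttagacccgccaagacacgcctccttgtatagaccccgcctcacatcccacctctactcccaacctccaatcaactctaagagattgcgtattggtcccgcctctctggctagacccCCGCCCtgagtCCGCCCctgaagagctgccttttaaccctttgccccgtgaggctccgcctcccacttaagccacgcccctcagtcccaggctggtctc
The windows differ in base composition. Ifngr2 has 74% G and C with 4 GC boxes, 2 of which overlap by 1 base, Ifngr1 has 59.2% with 2 GC boxes on the minus strand, and Ifnar2 has 54% with no GC box and 1 GAS match. The interferon-stimulated response element (a pair of GAAA stretches with 2 bases of any kind between them) matched in none of the 6 windows. Over 32841 such windows the median was 52.4% G and C, and 32.7% held a GC box, 7.02% a GAS match and 2.98% a response element match.

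Depth ran from 14.9 to 62.6 M reads in embryos and from 33.6 to 137.1 M reads in adults. As a check of the labels, the median log2 ratio to the euploid mean was taken in each library over the other tested genes of the triplicated segments. It was 0.58 ± 0.02 (SD, n = 7) in the E17.5 Ts65Dn libraries, close to the 0.585 that 3 copies over 2 would give. Of the 31 adult libraries labelled trisomic, 4 lay at the euploid level, namely B145 (male Ts65Dn, 0.0186), T35 and B138 (male Ts65Dn;Brwd1+/-, 0.0325 and 0.0388) and B136 (female Ts65Dn;Brwd1+/-, -0.0062). The sex transcripts Xist and Ddx3y went against the label in B88 (male Ts65Dn) and B85 (female euploid). All are kept as labelled in the main values, and results that rest on them are also given without all 6. Brwd1 itself averaged 6.76 ± 0.11 log2 CPM (SD) in the euploid males, 7.28 ± 0.20 with trisomy and 7.03 ± 0.26 with trisomy and the mutant allele, and of 6.87 ± 0.28, 7.36 ± 0.11 and 7.09 ± 0.26 in the female ones. Its log2 fold change in Ts65Dn;Brwd1+/- vs. Ts65Dn was -0.25 in males (adjusted p = 0.626, edgeR) and -0.25 in females (adjusted p = 1), and -0.21 and -0.19 without the 6 libraries (adjusted p = 0.438 and 1), so that the direction was that of the labels but the difference was not called. In the embryos Brwd1 was at 7.52 ± 0.07 in euploid and 8.08 ± 0.10 in Ts65Dn. Ddx3y was at 5.62 and 5.70 log2 CPM in euploid embryos 3 and 6 and at 5.72, 5.82 and 5.61 in Ts65Dn embryos 1, 2 and 7. It was at -2.02 or below in the other embryos, so that by this transcript both groups held both sexes.

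Levels between genes were compared per length, as FPKM, which scales reads to exon length and library size, within each tissue, since embryos and adults were normalized separately. In E17.5 euploid forebrain, Ifngr2 (23.95 ± 2.54 FPKM, SD, n = 8), Ifnar1 (20.5 ± 1.1) and Jak1 (19 ± 2.2) led. Ifnar2 (7.15 ± 0.89), Ifngr1 (3.67 ± 0.46), Tyk2 (3.24 ± 0.25), Il10rb (1.37 ± 0.21) and Il10ra (0.312 ± 0.106) followed. Among Ifngr2, Ifnar1 and Jak1, neighbours differed by less than the sum of their SDs, and so did Ifngr1 and Tyk2. The order within each set is that of the means, was not tested within libraries and changed in some of them. Adult euploid male hippocampus had Jak1 first (32.0 ± 1.2 FPKM, n = 8), then Ifngr2 (17 ± 1.1), Ifnar1 (8.79 ± 0.34), Ifnar2 (6.09 ± 0.72), Ifngr1 (4.66 ± 0.31), Tyk2 (3.04 ± 0.59), Il10rb (2.40 ± 0.31) and Il10ra (1.504 ± 0.276), of which Tyk2 and Il10rb overlapped within their SDs. This order held in every adult group except female Ts65Dn, where Il10rb (3.52 ± 0.49 FPKM) and Tyk2 (3.47 ± 0.70) changed places within their spread. The ligand-binding chain of the IL-10 receptor was thus the lowest of the 8 in all 8 groups of libraries.

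In the embryo, all 4 triplicated chains rose and none of their 2-copy partners passed the test. Over all genes, 1.35% were called at an adjusted p under 0.1 (edgeR quasi-likelihood, Benjamini-Hochberg over 16395 genes), and 62.4% of the tested genes of the triplicated segments were called higher. The 4 chains are therefore 4 calls in a segment where most genes were called. Groups that do not overlap are named below for the 8 genes and for Mx2 only. The share of other genes, in the segments or elsewhere, that separate in this way was not counted. Levels below are log2 CPM, the log2 of read counts scaled to library size, given as the lowest, the median and the highest library of a group. As these are bulk tissues, more cells of a type and more RNA per cell cannot be told apart.

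Ifnar1, the chain that holds TYK2 in the type I interferon receptor, was at 6.78, 6.95 and 7.01 log2 CPM in the 8 euploid embryos. The 7 Ts65Dn embryos were at 7.37, 7.39 and 7.53, and every one of them lay above the highest euploid embryo. The log2 fold change was 0.49 ± 0.05 (SE, 95% interval 0.39 to 0.59, adjusted p = 1.19e-05, edgeR).

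Ifnar2, the chain that binds type I interferon most tightly and holds JAK1, was at 4.19, 4.61 and 4.77 log2 CPM in euploid and at 5.003, 5.10 and 5.33 in Ts65Dn embryos. The groups did not overlap. Its log2 fold change was 0.58 ± 0.08 (interval 0.41 to 0.75, adjusted p = 0.000535, edgeR).

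Ifngr2, the accessory chain of the interferon-γ receptor, was at 6.18, 6.49 and 6.68 log2 CPM in euploid embryos. In Ts65Dn embryos it was at 6.92, 7.13 and 7.25, again with all 7 above the highest euploid value. The fit gave 0.63 ± 0.07 on the log2 scale (interval 0.49 to 0.78, adjusted p = 3.94e-05, edgeR).

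Il10rb, the chain shared by IL-10, IL-22 and type III interferon receptors, differed most in the embryo. Euploid libraries were at 2.08, 2.47 and 2.62 log2 CPM, which are 73 to 349 reads, and Ts65Dn libraries at 3.14, 3.43 and 3.60, which are 170 to 623 reads. No values overlapped. The log2 fold change was 1.01 ± 0.11 (interval 0.78 to 1.25, adjusted p = 3.93e-05, edgeR), a 2.02-fold difference whose interval lies above the 0.585 of a 3-to-2 gene dose. The intervals of Ifnar1, Ifnar2 and Ifngr2 each contain 0.585. With each of the 15 embryos left out in turn, the log2 fold change of Il10rb ranged from 0.98 to 1.07 and stayed called. The embryo titles carry 2 numbers whose meaning the labels do not give. Within the 8 embryos of the one number the log2 fold change was 1.07 (adjusted p = 0.0314, edgeR), and within the 7 of the other it was 0.99 (adjusted p = 0.121), where Ifnar1 alone of the 8 genes was called.

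**Figure D1:**
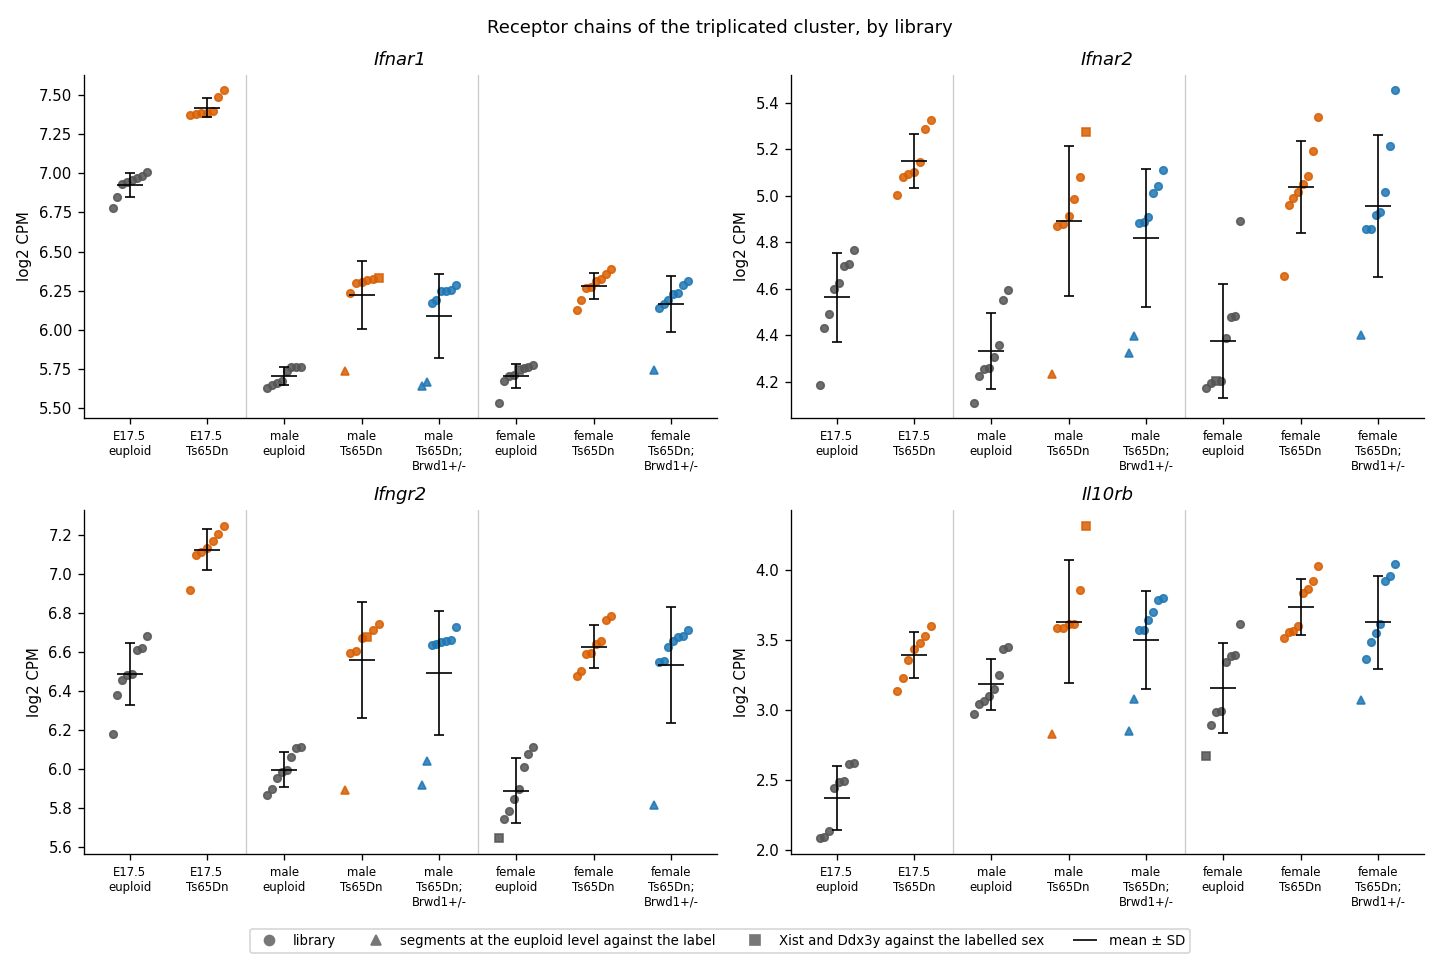
Log2 CPM of the 4 triplicated chains in each library (points) with the group mean and SD (bars), embryos and adults normalized separately. All 7 E17.5 Ts65Dn libraries lie above all 8 euploid ones for each gene, while the adult libraries marked by triangles, labelled trisomic with segments at the euploid level, lie among the euploid libraries or close to them. The share of other genes with such a separation was not counted.

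The other triplicated genes give the scale for these values. Over 129 other tested genes of the segments the median log2 fold change in embryos was 0.55, with quartiles of 0.47 and 0.69. Il10rb stood above 93.8% of them, Ifngr2 above 66.7%, Ifnar2 above 54.3% and Ifnar1 above 31%. Within single embryos, the log2 ratio of Il10rb to the euploid mean exceeded the median of the other segment genes by 0.44 ± 0.15 (SD, n = 7) in Ts65Dn, with a range of 0.22 to 0.61. In the 8 euploid embryos the same quantity was -0.01 ± 0.23, with a range of -0.31 to 0.27, which overlaps with that of Ts65Dn. The nearest tested genes on each side of the cluster were Olig1, a transcription factor of the oligodendrocyte lineage, at 0.40 ± 0.15 (adjusted p = 0.281, edgeR), and Tmem50b, a membrane protein of the secretory pathway, at 0.68 ± 0.05 (adjusted p = 7.86e-07).

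Some markers of other cells were also called higher in these embryos, and several of their sums varied together with Il10rb. The summed level of 10 perivascular macrophage and monocyte markers ranged from 33.4 to 54.3 CPM in euploid and from 50.6 to 86.2 CPM in Ts65Dn embryos, and 3 of the 6 tested were called higher. These were Lyve1 (log2 fold change 0.75), Mrc1 (0.56) and F13a1 (0.54). Endothelial markers summed to 259.7 to 363.4 CPM in euploid and 295.4 to 379.2 CPM in Ts65Dn embryos, with 1 of 12 called higher (Cdh5, 0.48). Of the 12 meningeal and vascular fibroblast markers, 1 was called higher (Slc6a13, 0.80), with sums of 563.1 to 2544 and of 1012 to 1574 CPM. Oligodendrocyte lineage markers summed to 120.7 to 182.6 and to 168.6 to 199.5 CPM with none of 8 tested called, and 2 of 10 astrocyte markers were called higher (Gja1, 0.59, and Gjb6, 0.69). After the group means were subtracted, Spearman's rho of Il10rb over the 15 embryos was 0.54 with the endothelial sum, 0.56 with the fibroblast sum, 0.54 with the oligodendrocyte sum and 0.40 with the perivascular sum. With the microglia sum it was 0.33, with the astrocyte sum 0 and with the neuron sum -0.42. Other members varied with these sums too. For the endothelial, fibroblast, oligodendrocyte and perivascular sums, Ifngr1 had 0.65, 0.61, 0.29 and 0.35. Ifngr2, also called higher, had -0.24, -0.71, -0.73 and -0.52. Microglia markers, at 130.8 to 166.2 and 135.3 to 167.8 CPM, overlapped and none of 20 was called. Choroid plexus markers had the highest median log2 fold change of the 9 marker lists (0.57), with 12 of 12 positive and none called. Their sums were 685.1 to 1581 CPM in Ts65Dn and 552.8 to 1440 CPM in 7 of the euploid embryos, and 52.99 CPM in euploid 7, far below the others. Without euploid 7 the log2 fold change of Il10rb was 0.98 (adjusted p = 0.000158, edgeR). Over all 15 embryos, with euploid 7 included, the rho of Il10rb with the choroid plexus sum was 0.10. It was not computed without euploid 7. Red blood cell markers, at 233.0 to 345.6 and 249.1 to 411.6 CPM, were positive in 5 of 5 with none called (rho 0.29). The part of these cells in the Il10rb value was not tested.

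The 2-copy partners showed smaller differences in the embryo. Ifngr1, the ligand-binding chain of the interferon-γ receptor, was at 2.93, 3.41 and 3.61 log2 CPM in euploid and at 3.36, 3.67 and 3.82 in Ts65Dn embryos. Although 6 of 7 Ts65Dn embryos were above the highest euploid one, its log2 fold change of 0.27 (interval 0.07 to 0.47) had an adjusted p of 0.253 by edgeR, and DESeq2 with removal of unwanted variation called it (adjusted p of 0.0505 with 1 factor and 0.0283 with 3). Jak1, the kinase used by all 3 receptors, was at 6.85, 7.09 and 7.37 in euploid and 7.12, 7.31 and 7.48 in Ts65Dn embryos. Its log2 fold change was 0.22 (interval 0.06 to 0.38, adjusted p = 0.238, edgeR), and the same DESeq2 fits called it too (0.0252 and 0.000227). The groups overlapped widely for Tyk2, the kinase on the IFNAR1 and IL10RB chains, at 4.31, 4.46 and 4.70 vs. 4.204, 4.41 and 4.63 log2 CPM (log2 fold change -0.03, interval -0.19 to 0.14, adjusted p = 0.895). Il10ra had 7 to 90 reads per embryo, at -1.25, 0.19 and 0.68 vs. 0.23, 0.34 and 0.70 log2 CPM. Its interval, from -0.20 to 0.73, contains both 0 and 0.585, so that a 1.5-fold difference is not excluded. The intervals of Ifngr1, Jak1 and Tyk2 lie below 0.585.

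**Figure D2:**
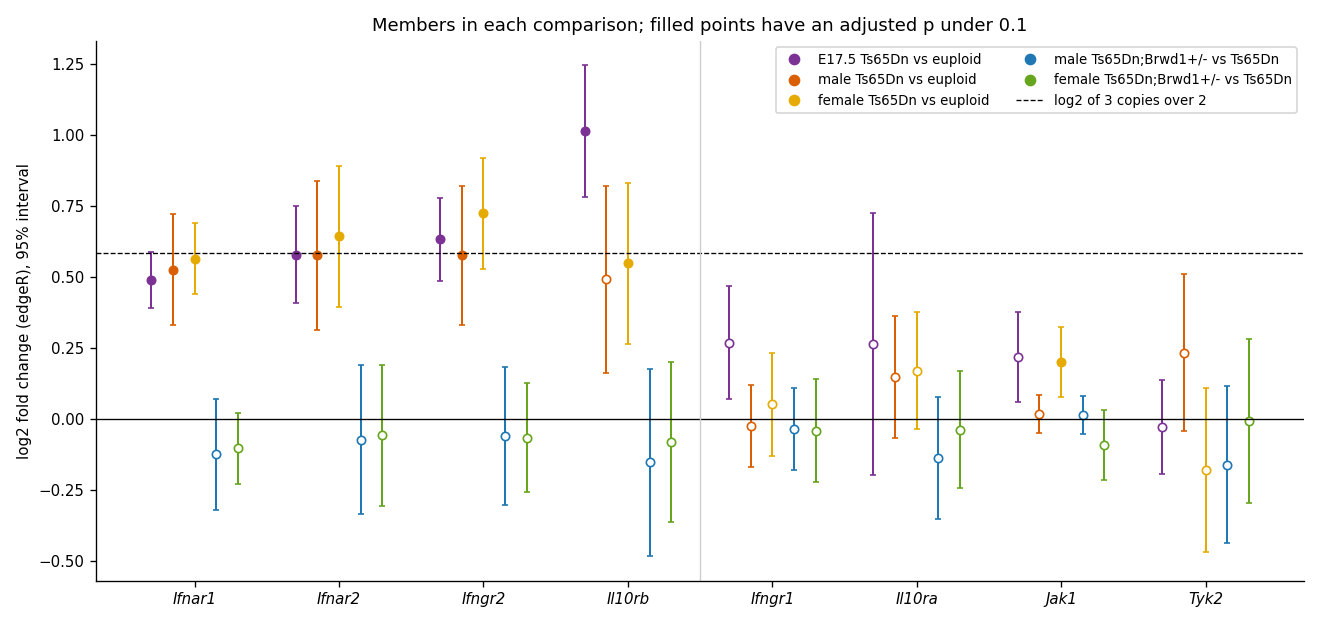
Log2 fold changes of the 8 genes with 95% intervals (edgeR), 3 comparisons of Ts65Dn vs. euploid and 2 of Ts65Dn;Brwd1+/- vs. Ts65Dn, with filled points for an adjusted p under 0.1 and a dashed line at 0.585. The interval of Il10rb at E17.5 (0.78 to 1.25) is the one that lies wholly above the line, and none of the intervals of Ts65Dn;Brwd1+/- vs. Ts65Dn leaves 0.

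In adult male hippocampus, Ifnar1, Ifnar2 and Ifngr2 were higher in Ts65Dn vs. euploid mice, and Il10rb was not called by edgeR with all libraries. Of all genes, 0.795% were called, and 54.9% of the tested segment genes were called higher. For each of the 4 chains, 6 of 7 libraries labelled Ts65Dn lay above the highest euploid library, and the exception each time was B145, the library with its segments at the euploid level.

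Ifnar1 was at 5.63, 5.71 and 5.77 log2 CPM in euploid males and at 5.74, 6.31 and 6.33 in Ts65Dn males, for a log2 fold change of 0.53 ± 0.09 (adjusted p = 0.00984, edgeR). Without the libraries against their labels, which took B145 and B88 from this contrast (5 vs. 8 libraries) and T35 and B138 from the third group of the fit, 1.54% of genes were called and this was 0.59 ± 0.03 (adjusted p = 1.24e-09). Ifnar2 was at 4.11, 4.28 and 4.60 vs. 4.23, 4.91 and 5.27 (log2 fold change 0.58 ± 0.13, adjusted p = 0.0334, and 0.60 ± 0.07 without these libraries). The same library, B145, was lowest for both genes. Ifngr2 was at 5.87, 5.99 and 6.12 log2 CPM in euploid and at 5.90, 6.67 and 6.74 in Ts65Dn males (0.58 ± 0.12, adjusted p = 0.0248, and 0.66 ± 0.04 without these libraries).

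Il10rb turned on the same libraries. It was at 2.97, 3.12 and 3.45 log2 CPM in euploid males and at 2.83, 3.61 and 4.31 in Ts65Dn males, where the lowest is B145 and the highest is B88. Its log2 fold change of 0.49 ± 0.16 (interval 0.16 to 0.82) had an adjusted p of 0.277 by edgeR. Without B145 alone it was 0.60 (adjusted p = 0.0450), and without B88 alone 0.35 (adjusted p = 0.325). In the fit without all 4 male libraries against their labels, chosen after the data were seen, it was 0.46 ± 0.08 (interval 0.28 to 0.63) with an adjusted p of 0.00441. DESeq2 did not call it (adjusted p = 0.122), and with removal of unwanted variation it did (0.0202 with 1 factor and 0.000917 with 3). Both edgeR intervals contain 0.585. Whether the 2 ages differ was not tested, as tissue and age changed together.

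In adult females all 4 chains and Jak1 were called higher in Ts65Dn vs. euploid hippocampus. Of all genes, 3.17% were called, and 64.2% of the tested segment genes were called higher. Ifnar1 was at 5.54, 5.73 and 5.77 log2 CPM in euploid and 6.13, 6.29 and 6.39 in Ts65Dn females (log2 fold change 0.56 ± 0.06, adjusted p = 6.95e-06, edgeR), and Ifngr2 at 5.65, 5.87 and 6.11 vs. 6.48, 6.62 and 6.78 (0.72 ± 0.09, adjusted p = 7.10e-05). For both genes all 8 Ts65Dn females lay above the highest euploid female, and how many other segment genes separate so was not counted. The interval of Ifngr2, 0.53 to 0.92, still contains 0.585.

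Ifnar2 was at 4.17, 4.30 and 4.89 log2 CPM in euploid and at 4.65, 5.03 and 5.34 in Ts65Dn females (0.64 ± 0.12, adjusted p = 0.00487, edgeR), with 7 of 8 above the highest euploid value. Il10rb was at 2.67, 3.16 and 3.61 vs. 3.51, 3.71 and 4.02, with 4 of 8 above the highest euploid library but all 8 above the euploid median. Its log2 fold change was 0.55 ± 0.14 (interval 0.27 to 0.83, adjusted p = 0.0401, edgeR), and 0.49 (adjusted p = 0.0788) without the euploid library B85. Among only the females whose identifiers start with B it was 0.43 with an adjusted p of 0.217. No euploid library has an identifier that starts with T, while the Ts65Dn females T139, T141 and T142 do. Il10rb was at 3.83, 4.02 and 3.92 log2 CPM in them, and identifier and genotype cannot be told apart there.

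In adults the 4 chains lay in the middle and upper range of the other triplicated genes. The median log2 fold change over the other tested segment genes was 0.50 in males and 0.52 in females. Il10rb stood above 47.3% of these genes in males and 56.2% in females, Ifnar1 above 60.5% and 61.5%, Ifnar2 above 74.4% and 73.1%, and Ifngr2 above 74.4% and 83.8%. Olig1 next to the cluster had a log2 fold change of 0.28 in males (adjusted p = 0.257, edgeR) and 0.45 in females (adjusted p = 0.00360), and Tmem50b of 0.49 (adjusted p = 0.0300) and 0.72 (adjusted p = 3.47e-06).

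**Figure D3:**
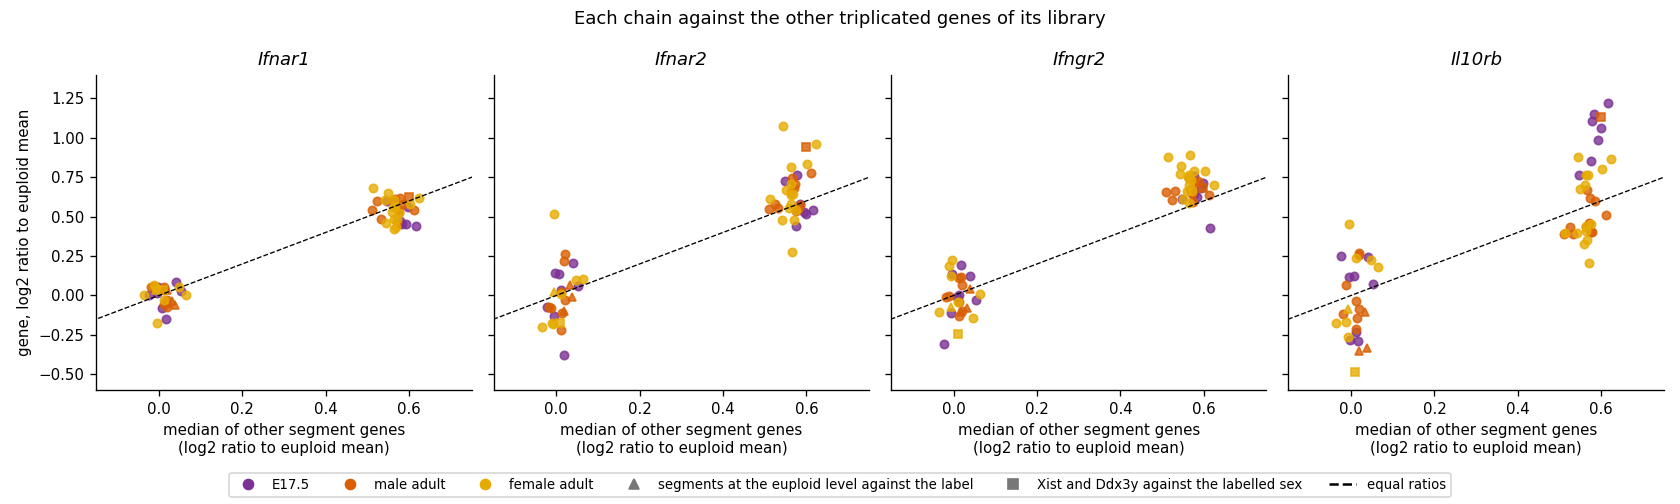
Log2 ratio to the euploid mean of each triplicated chain (y axis) against the median of the other tested segment genes in the same library (x axis), 1 point per library, with a dashed line of equal ratios. The 4 adult libraries at the euploid level against their label sit near 0 on the x axis, and the 7 Ts65Dn embryos lie 0.22 to 0.61 above the line for Il10rb.

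Of the 2-copy partners, edgeR and DESeq2 called Jak1 in Ts65Dn vs. euploid females and no other in adults. Jak1 was at 7.40, 7.71 and 7.83 log2 CPM in euploid and 7.78, 7.88 and 8.06 in Ts65Dn females, with 7 of 8 Ts65Dn libraries above the highest euploid one. The log2 fold change of 0.20 ± 0.06 (interval 0.08 to 0.33) had an adjusted p of 0.0876 by edgeR. Without the euploid library B85 the value was still 0.20 but the call was lost (adjusted p = 0.137), and in 9 of 16 fits that left out 1 library it was lost as well. In males Jak1 was at 7.79, 7.84 and 7.94 vs. 7.78, 7.86 and 7.95 (0.02, interval -0.05 to 0.08, adjusted p = 0.925). The test of the difference between the sexes gave 0.19 (unadjusted p = 0.00799, adjusted p = 0.306, edgeR), so that a sex difference was not called.

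Ifngr1 and Il10ra showed no call in either sex by edgeR or DESeq2, also with factors of unwanted variation. In males Ifngr1 was at 3.54, 3.73 and 3.86 log2 CPM in euploid and 3.45, 3.65 and 3.92 in Ts65Dn (log2 fold change -0.03, interval -0.17 to 0.12). In females it was at 3.499, 3.64 and 4.05 vs. 3.33, 3.73 and 4.09 (0.05, interval -0.13 to 0.23), and the groups overlapped in both sexes. Il10ra, a gene that brain expresses mainly in microglia, was at 1.99, 2.39 and 2.86 vs. 2.38, 2.57 and 2.70 in males (0.15, interval -0.07 to 0.36). In females it was at 2.14, 2.36 and 2.54 vs. 2.21, 2.51 and 2.90 (0.17, interval -0.04 to 0.38). All 4 intervals lie below 0.585. Tyk2 varied more within groups, at 4.10, 4.30 and 4.88 vs. 4.23, 4.62 and 5.12 in males (0.23, interval -0.04 to 0.51) and at 4.14, 4.82 and 5.09 vs. 4.27, 4.52 and 5.10 in females (-0.18, interval -0.47 to 0.11). DESeq2 with 3 factors of unwanted variation called Tyk2 higher in males (0.22, adjusted p = 0.0127) and lower in females (-0.15, adjusted p = 0.00830), which edgeR, DESeq2 without factors and DESeq2 with 1 factor did not.

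**Figure D4:**
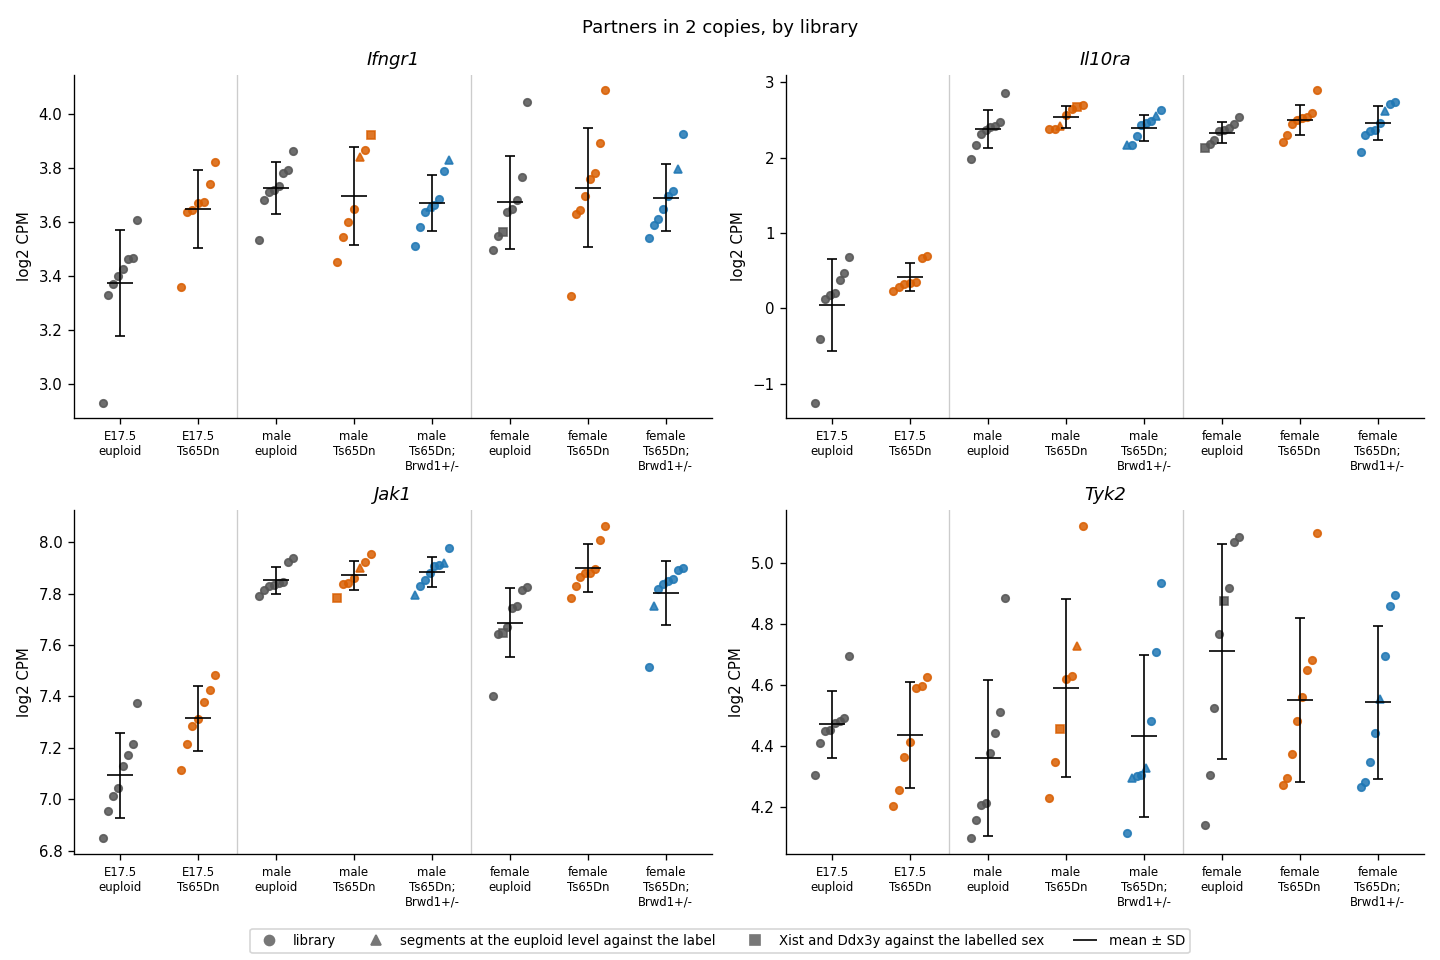
Log2 CPM of the 4 partners in 2 copies in each library (points) with the group mean and SD (bars), embryos and adults normalized separately. Ranges of Ts65Dn and euploid libraries overlap for every gene, and Jak1 in females and Ifngr1 in embryos are those with most Ts65Dn libraries above the highest euploid one (7 of 8 and 6 of 7).

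No difference between the sexes in the effect of trisomy or of the Brwd1 allele was called for any of the 8 genes or for any other gene (0.00% of 17427 genes for each interaction, edgeR). For the Ts65Dn vs. euploid contrast 1935 genes had an unadjusted p under 0.05, among them Jak1 (0.00799) and Tyk2 (0.0476, difference of log2 fold changes -0.40, adjusted p = 0.445). The second contrast had 650 such genes and none of the 8. DESeq2, which called 94 genes for the first contrast and 1 for the second, called none of the 8.

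With 1 copy of Brwd1 mutated, none of the 8 genes was called against Ts65Dn. In Ts65Dn;Brwd1+/- vs. Ts65Dn hippocampus 0.00% of genes were called in males and 0.00% in females by edgeR, with 1261 and 604 genes at an unadjusted p under 0.05. None of the 8 genes was among those, and DESeq2, which called 1 gene in males and 14 in females, called none of them either. In males the log2 fold changes were -0.12 for Ifnar1 (interval -0.32 to 0.07), -0.07 for Ifnar2 (-0.34 to 0.19), -0.06 for Ifngr2 (-0.30 to 0.18) and -0.15 for Il10rb (-0.48 to 0.18). In females they were -0.10 (-0.23 to 0.02), -0.06 (-0.31 to 0.19), -0.07 (-0.26 to 0.13) and -0.08 (-0.36 to 0.20). Without the 6 libraries named above, the male values were -0.06 (-0.14 to 0.01), 0.03 (-0.13 to 0.19), -0.00 (-0.09 to 0.09) and 0.03 (-0.16 to 0.22), and the other segment genes had a median of 0.00. The female values were then -0.06 (-0.16 to 0.04), 0.00 (-0.23 to 0.23), 0.01 (-0.11 to 0.13) and -0.02 (-0.27 to 0.23), beside a segment median of -0.02.

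Against euploid mice, Ts65Dn;Brwd1+/- males had 0.576% of all genes called and 38.3% of the segment genes called higher, and females 0.729% and 42.5%. Ts65Dn and Ts65Dn;Brwd1+/- shared the same euploid libraries in these comparisons. In males the log2 fold changes were 0.40 for Ifnar1 (adjusted p = 0.0581, edgeR), 0.50 for Ifnar2 (0.0879), 0.52 for Ifngr2 (0.0553) and 0.34 for Il10rb (0.470). The 2 male libraries at the euploid level, T35 and B138, were the only ones of 8 not above the highest euploid library for each of the 4 genes. Without the libraries against their labels all 4 chains were called, at 0.53 (adjusted p = 1.49e-09), 0.64 (3.49e-06), 0.66 (1.49e-09) and 0.49 (0.00115), with 1.83% of all genes called.

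In females the values were 0.46 for Ifnar1 (adjusted p = 0.000164, edgeR), 0.59 for Ifnar2 (0.0179), 0.66 for Ifngr2 (0.000410) and 0.47 for Il10rb (0.182). Ifnar1 and Ifngr2 lay above the highest euploid female in 7 of 8 libraries, Ifnar2 in 5 and Il10rb in 3. B136, the library at the euploid level, was the exception for Ifnar1 and Ifngr2. Without it and B85 the values were 0.52, 0.63, 0.71 and 0.47, with Il10rb not called (adjusted p = 0.118, 0.810% of genes called). Il10rb was called by edgeR without B136 alone (0.53, adjusted p = 0.0603) and with all libraries by DESeq2 (0.47, adjusted p = 0.0639). Neither edgeR nor DESeq2 called a partner in either sex, with edgeR log2 fold changes between -0.19 (Tyk2, females) and 0.13 (Il10ra, females). With factors of unwanted variation DESeq2 called Jak1 in females (0.11, adjusted p = 0.0906 with 1 factor and 0.0254 with 3) and, with 3 factors, Tyk2 (-0.16, adjusted p = 0.00396).

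The 2 chains of a receptor were compared within each library as a log2 ratio per exon length, given as a description without a test. For the interferon-γ receptor 1 chain is triplicated and the other is not. Ifngr2 to Ifngr1 had a mean ratio of 2.71 ± 0.25 (SD, n = 8) in euploid and 3.07 ± 0.22 (n = 7) in Ts65Dn embryos, with overlapping ranges. Among adult males it averaged 1.87 ± 0.11 for euploid, 2.46 ± 0.40 for Ts65Dn and 2.42 ± 0.38 for Ts65Dn;Brwd1+/-, and 1.81 ± 0.17, 2.50 ± 0.30 and 2.44 ± 0.35 in females. As geometric means on the linear scale, Ifngr2 was at 3.65 times the level of Ifngr1 per length in euploid males and at 5.49 times in Ts65Dn males. The lowest Ts65Dn male (1.65) and the lowest Ts65Dn;Brwd1+/- male (1.69) and female (1.62) were libraries at the euploid level.

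Il10rb to Il10ra, the other pair with unequal dose, had a mean log2 ratio of 2.202 ± 0.628 in euploid and 2.86 ± 0.23 in Ts65Dn embryos. In adult males it was 0.68 ± 0.17, 0.96 ± 0.37 and 0.98 ± 0.38 from euploid to Ts65Dn and Ts65Dn;Brwd1+/-, and in females 0.70 ± 0.30, 1.11 ± 0.19 and 1.05 ± 0.45. The ranges overlapped in each case. Both chains of the type I receptor are triplicated, and Ifnar1 to Ifnar2 stood at 1.53 ± 0.15 in euploid and 1.44 ± 0.11 in Ts65Dn embryos. In adults the mean was 0.54 ± 0.20, 0.50 ± 0.15 and 0.43 ± 0.09 in males and 0.50 ± 0.31, 0.41 ± 0.20 and 0.37 ± 0.23 in females. The means of the genotypes differed by less than the larger SD in each tissue and sex.

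**Figure D5:**
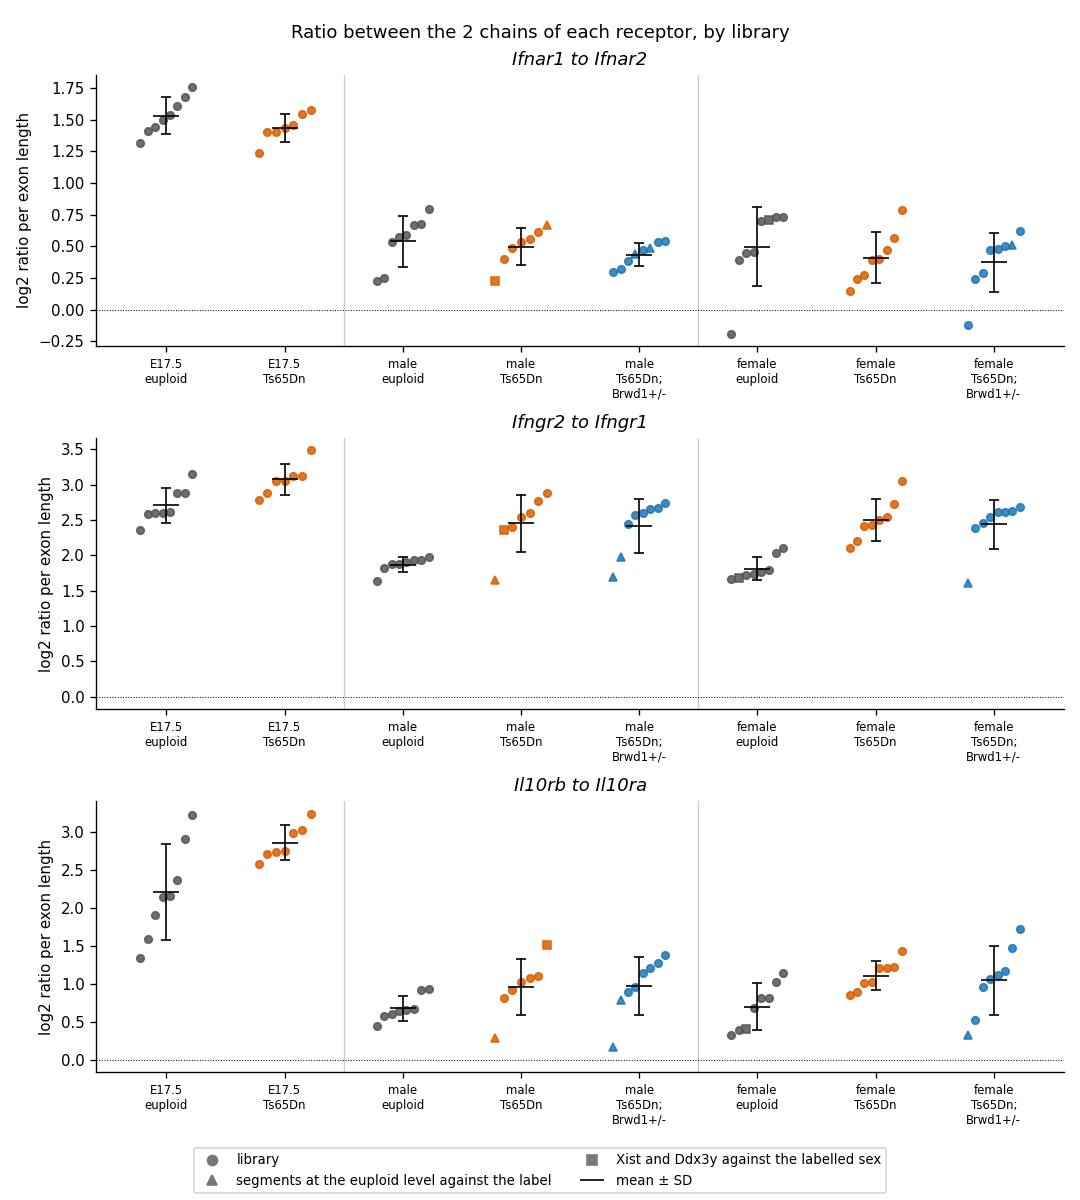
Log2 ratio per exon length between the 2 chains of each receptor in each library (points) with the group mean and SD (bars). Ifngr2 to Ifngr1 has means of 1.87 and 1.81 in euploid and of 2.46 and 2.50 in Ts65Dn males and females, and Ifnar1 to Ifnar2 stays between means of 0.37 and 0.54 in the 6 adult groups.

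Members also varied together from library to library within groups. Over the 47 adult libraries, after group means were subtracted, Ifnar2 and Il10rb had a Spearman's rho of 0.93, where the genes are 567 bases apart and both overlap Gm21970. Ifnar1 and Ifngr2 had 0.57. The libraries at the euploid level against their label lay low in their groups for both genes of each pair, and rho without them was not computed. Il10rb tracked the summed endothelial (0.65), meningeal and vascular fibroblast (0.63) and choroid plexus markers (0.58), and Ifnar2 did so with 0.57, 0.63 and 0.53. Choroid plexus markers ranged from 37.4 to 6433 CPM over adult libraries and widely within every group. Whether the tissue taken differed between libraries, and its part in these correlations, was not tested. Ifnar1 and Ifngr2 had values between -0.17 and -0.01 for these 3 sums. Il10rb and Ifnar2 also had 0.49 and 0.42 with the perivascular macrophage sum, and ran opposite to the neuron (-0.42 and -0.50) and astrocyte sums (-0.49 and -0.55). Ifngr1 varied with most of the non-neuronal sums, at 0.60 for perivascular macrophages, 0.59 for endothelial cells, 0.59 for fibroblasts, 0.49 for choroid plexus, 0.47 for microglia and 0.46 for oligodendrocytes, and had -0.55 with the neuron sum. Tyk2 had the opposite pattern, with -0.71 for the endothelial and 0.55 for the neuron sum.

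By the same measure the 3 genes most like each member were named. Those of Ifnar1 were Dyrk1a (0.69), Dscam (0.66) and App (0.64), and those of Ifnar2 were Mrps6 (0.86), Pigp (0.82) and Cfap298 (0.79). Il10rb had Ezr (0.81), Mrps6 (0.81) and Pigp (0.80), and Ifngr2 had Gtf2h5 (0.73), Cct8 (0.69) and Arl16 (0.68). Except for Arl16, on chromosome 11, all of these lie on chromosomes 16 or 17. The subtraction of group means leaves the libraries that go against their labels far from their group, which these values share. For the partners in 2 copies the leading genes were Plaat3 for Ifngr1 (0.77), Rit1 for Il10ra (0.63), Prepl for Jak1 (0.81) and Bmp1 for Tyk2 (0.97), each on another chromosome than its member.

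The ligands of these receptors were at or near 0 in every library. Of 26 listed interferon and IL-10 family genes, 10 had no read in any of the 62 libraries, 1 reached 10 reads in any library (Il22, highest 18), and none passed the filter, so that none was tested. Ifng had at most 4 reads and Il10 at most 4 in a library, and Ifnb1 had 1 read in 1 library. A transcript made by few cells is not detectable at this depth. Of the other 6 class II receptors listed, 3 were tested (Ifnlr1, Il20rb and F3), and neither edgeR nor DESeq2 called one with all libraries. Without the libraries against their labels, F3, the tissue factor of blood clotting, was called lower in Ts65Dn;Brwd1+/- vs. euploid males. Ifnlr1, which pairs with IL10RB for type III interferons, had a log2 fold change of 0.51 in embryos (adjusted p = 0.378) and 0.76 in Ts65Dn females (adjusted p = 0.262).

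Downstream of the receptors, the 4 transducers listed (Stat2, Stat3, Irf9 and Jak2) and all 14 negative regulators were tested, and edgeR called none in the comparisons with euploid or with Ts65Dn mice. In embryos the log2 fold changes of the transducers ran from -0.13 (Jak2) to 0.16 (Stat3). Irf9, which gives the type I interferon transcription complex its DNA-binding part, had 0.23 in Ts65Dn males (adjusted p = 0.523). Usp18, a feedback inhibitor that binds IFNAR2, had 1.17 in embryos (adjusted p = 0.325). At an unadjusted p under 0.05 there were in embryos 0 transducers and 3 negative regulators (1 higher, 2 lower), beside 12.1% of all genes. In Ts65Dn males there were 1 and 2, all higher (8.91% of all genes), and in Ts65Dn females 0 and 2 (1 higher, 1 lower, 15.4%). For Ts65Dn;Brwd1+/- vs. euploid, males had 1 transducer lower and 1 negative regulator higher (10.1%). Females had 1 transducer lower and 0 negative regulators (11.2%). Against Ts65Dn, each sex had 0 transducers and 1 negative regulator, lower (7.48% and 3.52%). DESeq2 called none of them in any comparison with an adjusted p.

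Interferon-stimulated genes were called in small numbers, in Ts65Dn embryos and Ts65Dn females. Of 48 in the tables, 40 were tested in embryos, of which 2 were called higher (1.35% of all genes were called) and 37 had a positive log2 fold change, with a median of 0.44 beside -0.01 over all genes. Mx2, an antiviral GTPase that is itself in the triplicated segment, was at -2.74, -1.71 and -0.88 log2 CPM (2 to 22 reads) in euploid and at -0.55, -0.27 and 0.24 (17 to 45 reads) in Ts65Dn embryos. The groups did not overlap, though the share of other genes that separate in this way was not counted. The log2 fold change was 1.33 ± 0.25 (adjusted p = 0.0139, edgeR). Bst2, also called tetherin, which holds enveloped viruses at the cell surface, was at 0.91, 1.45 and 2.08 vs. 1.97, 2.32 and 2.45 (0.73 ± 0.17, adjusted p = 0.0510). DESeq2 called these and Oasl2, beside 3.58% of all genes. Counting the called ones, 22 of the 40 had an unadjusted p under 0.05, all higher, as did 12.1% of all genes in either direction.

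In Ts65Dn vs. euploid females 2 of 46 were called, a share near the 3.17% over all genes. At an unadjusted p under 0.05 there were 14, all higher, beside 15.4% of all genes in either direction, 43 were positive and the median was 0.27 (all genes -0.02). Ifi44, an interferon-induced protein of unclear role, was at -1.80, -0.99 and -0.25 log2 CPM in euploid and at -2.25, 0.59 and 0.99 in Ts65Dn females (1.31 ± 0.32, adjusted p = 0.0334, edgeR). Irgm1, a GTPase of interferon-γ responses, was at 2.36, 2.71 and 2.90 vs. 2.77, 2.97 and 3.25 (0.29 ± 0.09, adjusted p = 0.0989). Both ranges overlapped those of euploid females, and for Ifi44 the lowest of these 16 libraries was a Ts65Dn one. Without the libraries against their labels Ifi44 and Mx2 were called, 42 of 46 were positive and the median was 0.23. DESeq2 called 7 of the 46 with all libraries, all higher, and 6.12% of all genes.

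In Ts65Dn vs. euploid males none of 46 was called by edgeR and none of 39 by DESeq2, 2 had an unadjusted p under 0.05 (8.91% of all genes), 26 were positive and the median was 0.03, and without the libraries against their labels 21 of 45 were positive with a median of -0.00. For Ts65Dn;Brwd1+/- vs. euploid none was called in males (24 positive, median 0.02) or females (39 positive, median 0.17), where 1 and 4 had an unadjusted p under 0.05 (10.1% and 11.2% of all genes). For Ts65Dn;Brwd1+/- vs. Ts65Dn none was called in males (17 of 46 positive, median -0.09) or females (10 positive, median -0.10), with 2 and 3 at an unadjusted p under 0.05, all lower, beside 7.48% and 3.52% of all genes. Without the libraries against their labels the male median turned to 0.06, with 29 of 45 positive, and the female one was -0.12, with 12 of 46 positive. DESeq2 called none in these 4 comparisons. It gave an adjusted p to 43 genes in males and 45 in females vs. euploid, and to 46 and only 17 vs. Ts65Dn. Many of these genes are also made by microglia and macrophages, and in the embryo their values stand beside the higher perivascular macrophage sums given above. In adults 1 of 20 microglia markers was called higher in Ts65Dn males (Aif1, 0.56) and 1 in Ts65Dn females (Ctss, 0.45), where 0.795% and 3.17% of all genes were called. In males 11 of the 20 were positive with a median of 0.005 (all genes 0.002), and in females 16 with a median of 0.08 (all genes -0.02). The sums overlapped, at 543.2 to 686.5 vs. 571.3 to 708.6 CPM in males and 516.3 to 648.5 vs. 537.2 to 738.2 CPM in females. The part of these cells in the interferon-stimulated genes was not tested.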

How the data were processed

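Read counts per gene were deposited by the authors as 1 table of 15 embryo forebrain libraries and 1 of 47 adult hippocampus libraries. The submitters' processing notes name HISAT2 (2.1.0), featureCounts (2.0.1) and DESeq2 (2.11.40.6). The genome build is given there as mm10 and mm9. The libraries were polyadenylated RNA from a kit that does not mark strand, counted as raw reads without molecular identifiers.

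The members and all gene lists were chosen with earlier results of these data known. Genes outside the members were named when called in their list, when nearest to the cluster or among the 3 most like a member, and Ifnlr1, Stat3, Jak2, Irf9 and Usp18 and the genes called by other settings were named after their values were seen. One gene of the transducer list is not reported here, and the counts leave it out. Groups were taken from the labels. Counts were filtered with filterByExpr (minimum count 10), normalized by TMM and tested with the quasi-likelihood test of edgeR (4.0.16, R 4.3.3), with the 3 genotypes of a sex in 1 fit and Benjamini-Hochberg adjustment over all genes tested. Calls are adjusted p under 0.1, and intervals are 95%. CPM is on TMM library sizes with a prior count of 0.5, and FPKM used GENCODE exon lengths. The tests were checked on simulated data. Alternatives were DESeq2 (1.42.0), also with removal of unwanted variation, other normalization, filters and thresholds, subsets of libraries and leaving out each library. Replicates carry separate embryo or animal numbers in the labels, and p-values measure only the spread between these samples.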

Additional observations from a re-analysis of the deposited data

Results flagged for a closer look

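Of 64 combinations of a gene and a group, 12 had a library that stood apart from the rest of its group in log2 CPM by Dixon's test at the 95% level, which chance alone gives in about 1 of 20 groups. These came from 7 libraries.

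Of the 12, 5 came from 2 libraries labelled trisomic with segments at the euploid level. The male Ts65Dn library B145 was lowest for Ifnar1 (5.74, next 6.24), for Ifnar2 (4.23, next 4.87) and for Ifngr2 (5.9, next 6.59). The female Ts65Dn;Brwd1+/- library B136 was lowest for Ifnar1 (5.74, next 6.14) and for Ifngr2 (5.82, next 6.55).

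The female euploid library B125 was lowest for Ifnar1 (5.54, next 5.68) and for Jak1 (7.4, next 7.64) and highest for Ifnar2 (4.89, next 4.48). The female Ts65Dn;Brwd1+/- library B176 was lowest for Jak1 (7.51, next 7.75).

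In the embryos, euploid 7 was lowest for Ifngr1 (2.93, next 3.33), Ts65Dn 1 was lowest for Ifngr1 (3.36, next 3.64) and euploid 3 was highest for Tyk2 (4.7, next 4.49).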

How the results depend on the processing

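Of the values of single genes recomputed under alternatives, 641 kept direction and call, 22 became called, 13 lost the call and 35 changed sign, none of the last called in either setting. The causes were not tested. The number of the 8 genes called in Ts65Dn;Brwd1+/- vs. euploid females was 3, but 5 with 1 factor of unwanted variation (Il10rb and Jak1 added) and 6 with 3 (also Tyk2). In Ts65Dn vs. euploid males it was 3, but 5 with 3 factors (Il10rb and Tyk2 added). In Ts65Dn;Brwd1+/- vs. euploid males it was 3, but 0 at an adjusted p under 0.05, and 0 to 3 with 1 library left out (0 without B137, B94, B69, B51 or B26, and 1 without B24, B79 or B110). In females Ts65Dn vs. euploid it was 5, but 3 among animals with identifiers starting with B, and in embryos 4, but 1 among the 7 that share 1 of the 2 title numbers. The 4 chains were called in embryos in each of 15 fits without 1 library, and in Ts65Dn females in each of 16. The replicate numbers of the embryos did not pair them (correlations from -0.137 to 0.229), and with a replicate block the same 4 genes were called, Il10rb at 1.03 (adjusted p = 0.00754, edgeR).

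Sign changes were as follows, in log2 fold change. Without libraries at the euploid dosage, Ts65Dn;Brwd1+/- females had 0 for Ifnar2 and 0.01 for Ifngr2 vs. Ts65Dn and 0 for Ifngr1 vs. euploid. Without libraries against their sex, Ifngr1 had 0.01 in males vs. Ts65Dn and 0 in females vs. euploid. Without both kinds, chosen after seeing the data, males vs. Ts65Dn had 0.03 for Ifnar2, 0.03 for Il10rb and 0.02 for Ifngr1, females vs. Ts65Dn 0 for Ifnar2 and 0.01 for Ifngr2, and females vs. euploid -0.02 for Ifngr1. The sex interactions were then -0.01 for Ifnar1 under trisomy, and -0.03, 0.01 and -0.05 for Ifnar2, Ifngr2 and Il10rb under the Brwd1 allele. Among B animals, Ifngr2 had 0.01 in males vs. Ts65Dn, Ifngr1 -0.06 in Ts65Dn females, and Ifnar2, Il10rb, Ifngr1 and Il10ra 0.01, 0.03, 0.08 and 0.06 in females vs. Ts65Dn. Among the 8 embryos of the other title number, Il10ra had -0.06 and Tyk2 0.1. With 1 library left out, ranges that crossed 0 were -0.05 to 0.02 for Tyk2 in embryos, -0.07 to 0.01 for Ifngr1 in Ts65Dn males, -0.15 to 0.01 for Ifngr2 and -0.07 to 0.01 for Ifngr1 in males vs. Ts65Dn, and -0.04 to 0.09 for Il10ra and -0.01 to 0.16 for Tyk2 in Ts65Dn;Brwd1+/- males vs. euploid. In females vs. Ts65Dn they were -0.14 to 0 for Ifnar2, -0.09 to 0.01 for Ifngr2 and for Ifngr1, -0.09 to 0.02 for Il10ra and -0.07 to 0.09 for Tyk2, and vs. euploid -0.03 to 0.07 for Ifngr1.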
